A study of Mus musculus with 24 samples.

Results

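Trimethylation of histone H3 on lysine 4 (H3K4me3) was followed at the promoters of the kainate receptor genes Grik1, Grik2, Grik3, Grik4 and Grik5 and of the delta receptor gene Grid1 in mouse cerebral cortex. The members were the counted regions that overlap an annotated transcription start site (TSS) of these 6 genes, whatever their values, and 7 of the 17993 regions met this rule. Every gene had at least 1 region, Grik2 had 2, and none of the 7 overlapped a TSS of another gene. Counts were compared over 4 groups of 3 libraries, from C57BL/6 mice that all carried FLAG-tagged histone H2B. In Rosa H2B-FLAG mice (labelled Rosa CAG-H2B-FLAG), the stop cassette had been removed with Vasa-Cre and the tag was made constitutively in nearly every cell. In Camk2a H2B-FLAG mice (labelled Rosa26 CAG-floxed-pA-H2B-FLAG/ CaMKCreERT2), male mice were given 1 mg of tamoxifen per day for 5 days at 8 weeks of age, so that the tag was made from then on in the Camk2a-positive neurons, which are mostly pyramidal cells. From each line, H3K4me3 was precipitated directly from whole cortical lysate (single ChIP-Seq) or from chromatin first purified with an anti-FLAG antibody (tChIP-Seq). Single ChIP-Seq therefore reads all cells of the cortex in both lines. tChIP-Seq is meant to read nearly all cells in Rosa H2B-FLAG and the tagged neurons in Camk2a H2B-FLAG. The paper mixed cultured cells and found untagged chromatin comparable with tagged chromatin at high dilution. It places the labelled cells of the brain at about the limit of the method. Untagged chromatin carried over into tChIP-Seq was not measured here. Each lysate came from 2 animals. The Camk2a H2B-FLAG mice were sacrificed a month after tamoxifen. The paper describes no tamoxifen for Rosa H2B-FLAG mice, so treatment as described and length of tagging differed between the lines. From Western blots of Rosa H2B-FLAG cortex, the paper infers that part of the tagged histone presumably carries an extended N-terminus. It shows no such blot for Camk2a H2B-FLAG.

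H3K4me3 is deposited on nucleosomes around active or poised promoters, and its amount at a promoter usually follows whether the gene is in use. Kainate receptors are tetrameric glutamate-gated cation channels that act at both sides of the synapse. Grik1, Grik2 and Grik3 encode the low-affinity subunits, which can form channels on their own, and Grik4 and Grik5 encode the high-affinity subunits, which need a low-affinity partner. Grik4 and Grik2 are known for their place in the mossy fibre pathway of the hippocampus, and Grik2 and Grik5 are widely used in cortical pyramidal cells. Grid1 encodes a delta receptor, a relative that does not act as an ordinary glutamate-gated channel and instead ties the postsynaptic membrane to presynaptic neurexins through secreted cerebellins.

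The promoter sequences are shown because the counts below were taken over them. RefSeq promoter windows (GRCm38.p6) were given for Grik2, Grik3, Grik4 and Grik5 and not for Grik1 and Grid1. The 250 bases before each RefSeq start occurred once in mm9, the build of the counts, and each window lay inside a counted region. The RefSeq start of Grik4 lay 122 bp downstream of the annotated TSS in its region. The end of the Grik4 window therefore lies within the annotated gene. The Grik3 window is chr4:125167690-125167939 on the plus strand, and on the minus strand the Grik2 window is chr10:49508561-49508810, the Grik4 window chr9:42752455-42752704 and the Grik5 window chr7:25857389-25857638. All are written 5′ to 3′ in the direction of transcription, and capitals mark the GC box GGGCGG on either strand, the motif known to be bound by Sp1.
Grik2: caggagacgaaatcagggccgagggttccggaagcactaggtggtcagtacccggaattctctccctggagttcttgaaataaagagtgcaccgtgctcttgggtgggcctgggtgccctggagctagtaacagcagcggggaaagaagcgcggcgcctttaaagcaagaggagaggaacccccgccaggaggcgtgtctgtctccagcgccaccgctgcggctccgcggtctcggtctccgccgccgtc
Grik3: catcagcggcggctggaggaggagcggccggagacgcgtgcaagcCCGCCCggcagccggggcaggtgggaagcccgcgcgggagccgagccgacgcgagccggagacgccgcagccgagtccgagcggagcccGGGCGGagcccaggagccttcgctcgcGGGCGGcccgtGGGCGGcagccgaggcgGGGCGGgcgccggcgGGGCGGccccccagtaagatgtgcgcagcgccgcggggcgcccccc
Grik4: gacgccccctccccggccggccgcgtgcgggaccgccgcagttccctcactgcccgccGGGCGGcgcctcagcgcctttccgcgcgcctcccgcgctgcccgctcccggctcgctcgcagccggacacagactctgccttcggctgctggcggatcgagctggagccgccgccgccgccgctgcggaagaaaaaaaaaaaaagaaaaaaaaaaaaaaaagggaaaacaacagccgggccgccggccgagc
Grik5: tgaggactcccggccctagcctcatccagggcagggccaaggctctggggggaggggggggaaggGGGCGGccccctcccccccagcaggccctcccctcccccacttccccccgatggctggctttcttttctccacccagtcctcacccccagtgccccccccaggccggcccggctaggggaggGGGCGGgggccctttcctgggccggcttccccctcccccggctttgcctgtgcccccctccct

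The 4 windows differed in base composition. Grik3 held 6 GC boxes, Grik5 held 2, Grik4 held 1 and Grik2 held 0, and 32.7% of the 32851 RefSeq windows of this length hold at least 1. The G+C share was 82.0% in Grik3, 75.2% in Grik5, 69.6% in Grik4 and 62.8% in Grik2, against a median of 52.4% over all windows. The Grik5 window held 8 CpG dinucleotides, 0.235 times the number expected from its C and G content, whereas the ratio was 1.01 in Grik3, 1.21 in Grik4 and 0.817 in Grik2 and the median over all windows was 0.374. None of the 4 windows held CCAAT (in 33.8% of all windows), TATAAA (12.4%), the cyclic AMP response element TGACGTCA (1.55%), TTCAGCACC, the left part of the REST site (0.301%), or GCGCATGC, the core of the NRF-1 site (2.26%), on either strand. None of these motifs contains the GC box, and a missing match says only that these letters are not in the window.

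The counted regions were wide. Grik3 had the widest, at chr4:125165841-125170769 (4929 bp), followed by Grik5 at chr7:25854125-25858768 (4644 bp), Grid1 at chr14:35631924-35635500 (3577 bp), the upstream Grik2 region at chr10:49506057-49509456 (3400 bp), the downstream Grik2 region at chr10:49501277-49504644 (3368 bp), Grik1 at chr16:88288819-88291209 (2391 bp) and Grik4 at chr9:42750875-42753220 (2346 bp). The median width of the 13404 regions that overlap a TSS was 2060 bp, so all 7 were wider than the median, and Grik3 and Grik5 stood at percentiles 96.6 and 95.4. Seen along the direction of transcription, 6 of the 7 reached farther into the gene than away from it, for example 3263 bp downstream and 1380 bp upstream of the TSS at Grik5, and Grik1 was the exception with 1128 and 1262 bp. The gene part of every region was mostly intron. The exon inside the Grik3 region measured 246 bp, of which 115 bp were coding, the Grid1 exon 482 bp with 79 bp coding, the Grik1 exon 118 bp annotated as coding throughout, and the Grik4 and Grik5 exons 167 and 330 bp without coding sequence. All 6 genes are long, from 62.5 kb for Grik5 to 764 kb for Grid1. Base composition over whole regions varied widely among the members. The G+C shares of 43.5% and 42.9% in the 2 Grik2 regions were below those of all but 2.28% and 1.92% of TSS regions, and the CpG ratio of 0.257 at Grik5 was below that of all but 2.42%. At the other end, the G+C share was 65.0% at Grik4 and 63.1% at Grid1, above those of 97.2% and 94.7% of TSS regions.

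**Figure D1:**
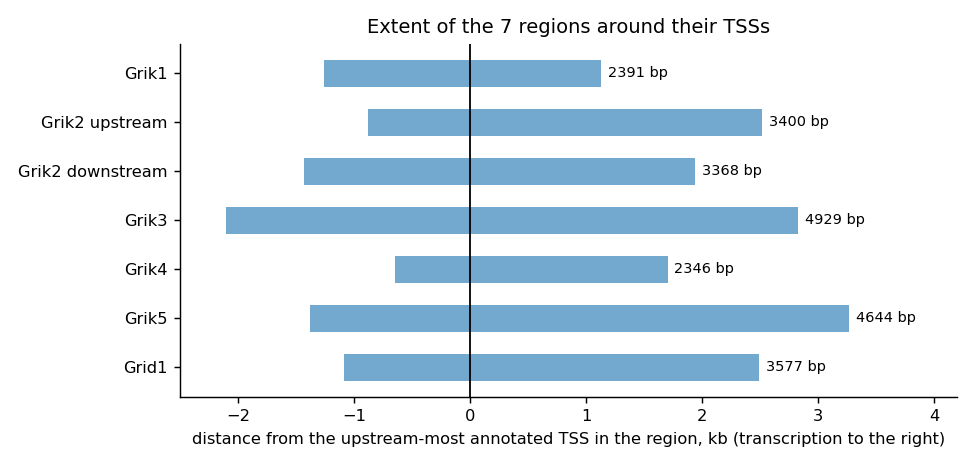
Extent of the 7 regions in kb from the upstream-most annotated TSS that each overlaps, with transcription running to the right and the width beside each bar. Grik3 (4929 bp) and Grik5 (4644 bp) are widest, and all but Grik1 extend farther to the right of the TSS than to the left.

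GENCODE release M1 annotates 22 transcripts with 16 distinct TSSs for the 6 genes, and 9 of these TSSs lay in a region. The other 7 had no counted region. They comprise 3 of the 7 Grik2 TSSs and 1 TSS each of Grik1, Grik3, Grik4 and Grid1, and for Grik1 this is the TSS shared by 4 of its 5 transcripts. The remaining Grik1 transcript starts in the counted region, at position 88289947. Grik2 therefore had 2 separately counted promoter regions 1412 bp apart, of which the upstream region holds the TSSs of 2 transcripts and the downstream region those of 5.

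Total counts over all regions ranged from 1457261 to 1828371 in Rosa H2B-FLAG tChIP-Seq, from 2709729 to 3049130 in Camk2a H2B-FLAG tChIP-Seq and from 4063200 to 8644574 in single ChIP-Seq. Libraries of a group correlated at r of 0.970 to 0.995 over log2 CPM of all regions. The 7 regions held from 40 counts, at Grik1 in a Rosa H2B-FLAG tChIP-Seq library, to 1167 at Grik5, so Grik1 is the least precise and the Rosa H2B-FLAG tChIP-Seq group limits every comparison it enters. Levels are given as CPM (counts scaled to a common library total), with the library sizes scaled by TMM over the 12 libraries, and differences as the log2 fold change fitted by edgeR. A region was called when its Benjamini-Hochberg adjusted p over all 17993 regions was under 0.01. The libraries are numbered 1 to 3 in the labels, which do not say which animals they came from, so p-values measure the spread between these libraries.

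Per kb of region, Grik4, Grid1 and Grik5 carried most H3K4me3 and Grik1 least in each of the 4 groups. In Rosa H2B-FLAG single ChIP-Seq, the level was 33.4 ± 0.895 CPM per kb (SD, n = 3) at Grik4, 32.7 ± 0.481 at Grid1 and 29.3 ± 0.727 at Grik5. It was 23.3 ± 1.48 and 22.6 ± 1.41 at the downstream and upstream Grik2 regions, 20.9 ± 0.388 at Grik3 and 13.7 ± 0.408 at Grik1. The libraries of Grik4 and Grid1 overlapped, as did those of the 2 Grik2 regions and those of the upstream Grik2 region and Grik3, while the other neighbours in this order did not overlap. In Camk2a H2B-FLAG tChIP-Seq, Grik4 at 45.6 ± 2.54 and Grid1 at 43.8 ± 1.6 again overlapped at the top, Grik5 followed at 36.5 ± 3.49, and Grik1 was last at 16.7 ± 1.15. Grik3 stood at rank 4 with 25.3 ± 1.36 there, with libraries that overlapped those of the downstream Grik2 region, and at rank 6 in the other 3 groups. The median over all TSS regions and libraries was 28.7 CPM per kb. The mean over the 12 libraries put Grik4 at percentile 72.2 of the TSS regions, Grid1 at 63.3, Grik5 at 53.9 and Grik1 at 14.3. In Rosa H2B-FLAG tChIP-Seq, Grik3 (12.6 ± 0.605) and Grik1 (12.2 ± 2.03) were lowest and overlapped.

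Setting the 2 lines side by side in tChIP-Seq asks which promoters carried more H3K4me3 in the tagged neurons than in the tagged cells of the whole cortex. All 7 regions were higher in Camk2a H2B-FLAG, by 1.36-fold at Grik1 to 2.02-fold at Grik3, and all 7 passed the test. The median log2 fold change was 0.61, beside -0.0033 over all 17993 regions, of which 17.0% were called higher and 14.6% lower. Among the 13404 TSS regions the shares were 18.2% and 15.2%. When libraries were scaled by their totals alone, the split over all regions turned from 3062 higher and 2620 lower to 2570 higher and 3315 lower, and 6 of the 7 receptor regions were called. The 3 neuronal libraries exceeded the 3 from Rosa H2B-FLAG without overlap at 7 of 7 regions, and this was the case at 24.8% of all regions. The differences also depend on the Rosa H2B-FLAG tChIP-Seq level, which was called below single ChIP-Seq of that line at 5 of the 7 regions. More cells that carry the mark, more mark per cell and a lower level in the Rosa H2B-FLAG reference cannot be told apart in these data.

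Among the low-affinity subunits, Grik3 changed most. Its CPM was 132, 119 and 123 in the Camk2a H2B-FLAG libraries and 62.1, 65.0 and 59.1 in the Rosa H2B-FLAG libraries. Every neuronal library lay far above every Rosa H2B-FLAG library, with a gap larger than the spread within either group. Grik3 thus rose by 1.01 on the log2 scale (SE 0.09, adjusted p = 3.48e-17), and 6.48% of all regions had a larger one. At the upstream region of Grik2, which encodes the most widely used kainate receptor subunit of the forebrain, CPM was 79.7, 82.6 and 88.4 against 52.7, 59.6 and 44.6. The Rosa H2B-FLAG libraries were lower and also more scattered. This region rose by 0.67 on the log2 scale (SE 0.10, adjusted p = 3.73e-08). At the downstream region of Grik2, CPM was 84.0, 82.6 and 84.7 against 62.1, 54.9 and 63.6, again with no overlap. The rise there was 0.48 on the log2 scale (SE 0.10, adjusted p = 1.79e-05).

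The upstream region took between 41.2% and 52.1% of the counts of the Grik2 pair in the Rosa H2B-FLAG tChIP-Seq libraries and between 48.7% and 51.1% in the Camk2a H2B-FLAG tChIP-Seq libraries. These ranges overlapped, and the library at 41.2% rested on 68 of 165 counts (95% Wilson interval 34.0% to 48.8%, which covers counting error only). In single ChIP-Seq the share lay between 46.2% and 53.5%. A shift between the 2 Grik2 promoter regions was not tested.

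Grik1, which also encodes a low-affinity subunit and is known for its use in cortical interneurons, had the smallest and least certain difference. Its CPM was 38.4, 38.2 and 43.1 in Camk2a H2B-FLAG against 33.4, 23.9 and 30.2 in Rosa H2B-FLAG. The groups did not overlap, but the gap between them was smaller than the spread within Rosa H2B-FLAG, where the second library was lowest with 40 counts. The log2 fold change was 0.45 (SE 0.14, adjusted p = 0.00696). Without Rosa H2B-FLAG tChIP-Seq replicate 2 it fell to 0.32 with an adjusted p of 0.0977, without replicate 3 of the same group the adjusted p was 0.0155, and without Camk2a H2B-FLAG tChIP-Seq replicate 3 it was 0.0406. The call was also lost with library totals alone (adjusted p = 0.0247) and in DESeq2 (adjusted p = 0.0518).

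The high-affinity subunits differed by similar amounts. CPM at Grik4 was 106, 102 and 114 in Camk2a H2B-FLAG and 62.1, 76.3 and 74.1 in Rosa H2B-FLAG. The highest Rosa H2B-FLAG library was clearly below the lowest neuronal library. Grik4 rose by 0.61 on the log2 scale (SE 0.09, adjusted p = 1.36e-08). CPM at Grik5 was 156, 187 and 166 against 109, 113 and 121, and no member had higher group means over its whole region. Grik5 rose by 0.58 on the log2 scale (SE 0.07, adjusted p = 1.52e-10).

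At the delta receptor gene Grid1, CPM was 162, 157 and 151 in Camk2a H2B-FLAG and 80.4, 84.1 and 95.8 in Rosa H2B-FLAG. The neuronal libraries stood close together and well above the others. Grid1 rose by 0.87 on the log2 scale (SE 0.08, adjusted p = 1.03e-16), which after Grik3 was the second largest of the 7. Taking 95% intervals from the SEs, that of Grik3 (0.84 to 1.18) overlapped those of Grid1 (0.72 to 1.02) and the upstream Grik2 region (0.473 to 0.872). The Grik3 interval lay above those of the downstream Grik2 region (0.295 to 0.671), Grik1 (0.17 to 0.73), Grik4 (0.43 to 0.78) and Grik5 (0.44 to 0.72). The difference between members was not tested.

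**Figure D2:**
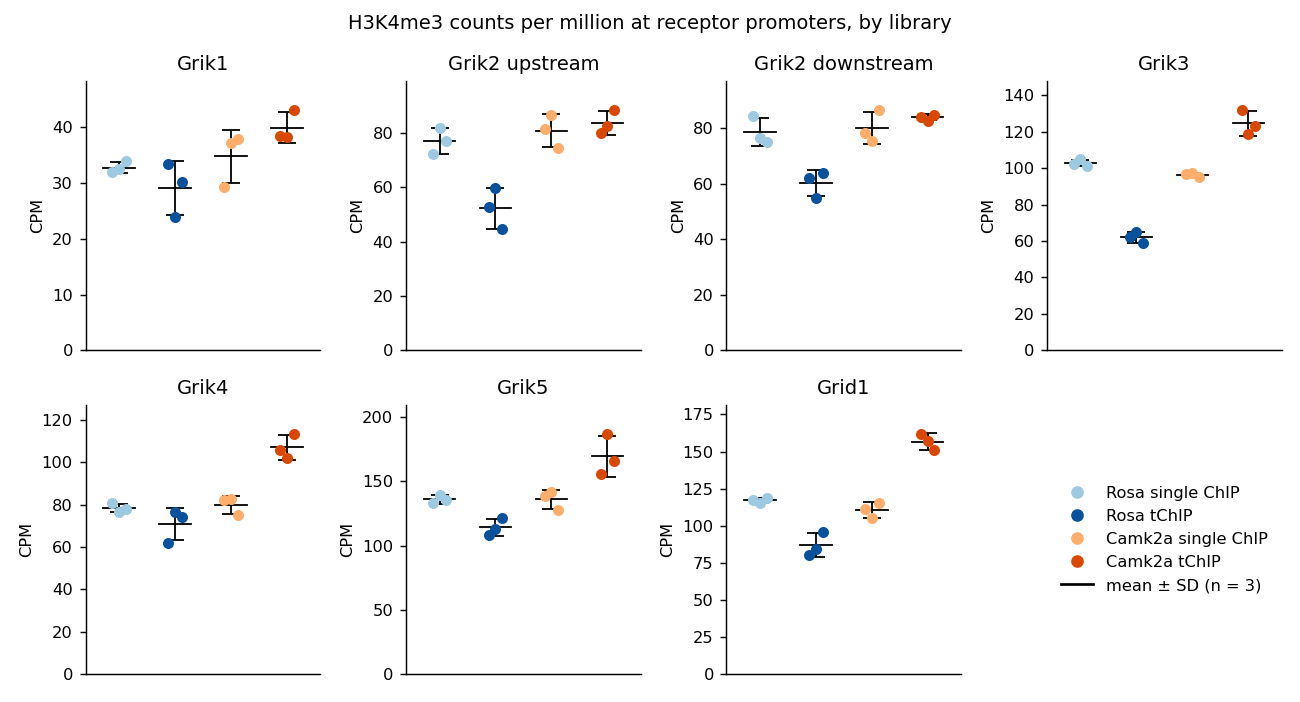
CPM of H3K4me3 in each library at the 7 regions, with points for libraries and black lines for the mean ± SD of each group (n = 3). In every panel the 3 Camk2a H2B-FLAG tChIP-Seq libraries (dark orange) lie above the 3 Rosa H2B-FLAG tChIP-Seq libraries (dark blue), whereas the single ChIP-Seq groups of both lines (pale) lie at similar heights.

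**Figure D3:**
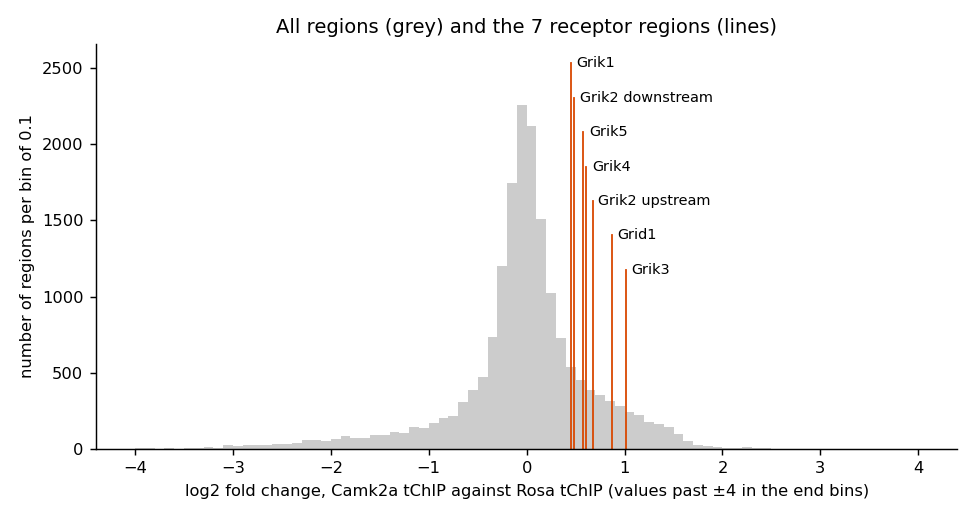
Number of regions per bin of 0.1 in the log2 fold change between the Camk2a H2B-FLAG and Rosa H2B-FLAG groups of tChIP-Seq, with a line for each of the 7 receptor regions. The lines run from 0.45 at Grik1 to 1.01 at Grik3 and stand on the right shoulder of the distribution, whose median is -0.0033.

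In single ChIP-Seq, where both lines read the whole cortex, the same comparison gave no call at the 7 regions. Log2 fold changes lay between -0.10 at Grik3 and 0.09 at Grik1, and the 95% intervals reached from -0.20 to 0.27 over the 7 regions. The lowest adjusted p was 0.272, at Grik3. edgeR called 0.928% of all regions higher and 1.22% lower, as 167 and 219 regions, and with library totals alone this became 194 and 57. The Wald test of DESeq2 likewise called none of the 7, with 27 regions higher and 7 lower over all regions. CPM at Grik3 was 97.0, 97.1 and 95.2 in Camk2a H2B-FLAG and 102, 105 and 101 in Rosa H2B-FLAG. The Camk2a H2B-FLAG libraries of Grik3 were slightly lower without overlap, but the difference was not called. At Grid1, CPM was 111, 105.0 and 115 against 117, 115 and 119, with overlap. Grik5 stood at 139, 142 and 128 CPM against 133, 140 and 135, with a fitted difference of -0.0011. Grik4 stood at 82.2, 82.6 and 75.0 against 80.7, 76.6 and 77.9. For Grik1, the values were 29.3, 37.2 and 37.9 against 32.0, 32.4 and 33.9, so its Camk2a H2B-FLAG libraries were the more scattered and lay on both sides of the others. The upstream Grik2 region held 81.2, 86.6 and 74.5 CPM against 72.1, 81.7 and 77.1, and the downstream region 78.0, 75.4 and 86.5 against 84.2, 76.2 and 74.9. Neither Grik2 region separated the lines.

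The line effect in tChIP-Seq was set against that in single ChIP-Seq by the interaction of line and kind of ChIP, fitted over the 12 libraries. It was called in the positive direction at 6 of the 7 regions, beside 13.7% of all regions in this direction and 13.2% in the other. The interaction was 1.10 on the log2 scale at Grik3 (SE 0.10, adjusted p = 9.11e-21) and 0.95 at Grid1 (SE 0.09, adjusted p = 1.59e-19). It was 0.60 and 0.45 at the upstream and downstream Grik2 regions and 0.57 at both Grik4 and Grik5. At Grik1 it was 0.35 (SE 0.17) and did not pass the test (adjusted p = 0.0976), with values from 0.23 without Rosa H2B-FLAG tChIP-Seq replicate 2 to 0.48 without replicate 1 of that group. With library totals alone the same number of members, 6, was called, while the calls over all regions turned from 2466 positive and 2375 negative to 1894 and 2970.

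The comparison of tChIP-Seq with single ChIP-Seq in Rosa H2B-FLAG sets counts after the FLAG purification step against counts without it, where nearly all cells are tagged. The paper names several possible sources of such differences, among them a bias towards longer DNA and the FLAG epitope. These sources were not tested here. This comparison shares the Rosa H2B-FLAG tChIP-Seq libraries with the comparison of lines above. The receptor regions were lower after the FLAG step at 5 of 7, and none was called higher, beside 22.5% of all regions called lower and 24.7% higher. Among TSS regions the shares were 28.6% lower and 20.2% higher. Grik3 fell from 102, 105 and 101 CPM to 62.1, 65.0 and 59.1 (log2 fold change -0.72, SE 0.08, adjusted p = 1.1e-16). Grid1 fell from 117, 115 and 119 to 80.4, 84.1 and 95.8 (log2 fold change -0.43, SE 0.07, adjusted p = 3.11e-08). In both genes the groups did not overlap. The upstream and downstream Grik2 regions fell by 0.54 and 0.37 on the log2 scale (adjusted p = 2.75e-08 and 9.95e-05). Grik5 fell by 0.25 (adjusted p = 0.000462), and this call was lost without Rosa H2B-FLAG tChIP-Seq replicate 1 (adjusted p = 0.0172) and with library totals alone (adjusted p = 0.0428). Grik1 and Grik4 were not called, with log2 fold changes of -0.15 (adjusted p = 0.34) and -0.14 (adjusted p = 0.136). Both values moved with single tChIP-Seq libraries, Grik1 to -0.28 without replicate 1 and -0.03 without replicate 2, and Grik4 to -0.05 without replicate 1. With library totals alone they were -0.05 and -0.04, and neither was called in any alternative. Library totals alone moved the calls over all regions from 4439 higher and 4046 lower to 5298 and 2522, and 4 of the 7 members were then called, all lower.

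In Camk2a H2B-FLAG, the comparison of tChIP-Seq with single ChIP-Seq sets the tagged neurons against the whole cortex of the same line. It also holds any effect of the FLAG step itself and any untagged chromatin carried over, and these cannot be told apart. To offset biases of that step, the paper based its differential analyses mainly on tChIP-Seq of both lines. Here 4 of the 7 regions were called higher in tChIP-Seq and none lower, beside 25.3% of all regions called higher and 22.6% lower. Grid1 rose from 111, 105.0 and 115 CPM to 162, 157 and 151, with no overlap (log2 fold change 0.51, SE 0.06, adjusted p = 1.45e-14). Grik4 rose by 0.42 (SE 0.07, adjusted p = 4.09e-08), Grik3 by 0.37 (SE 0.06, adjusted p = 9.91e-08) and Grik5 by 0.31 (SE 0.06, adjusted p = 3.54e-07). Both Grik2 regions stayed without a call, with log2 fold changes of 0.05 upstream and 0.07 downstream (adjusted p = 0.612 and 0.43), as did Grik1 at 0.19 (adjusted p = 0.115). The 95% intervals for the Grik2 regions were -0.10 to 0.19 and -0.08 to 0.21. At Grik2, Camk2a H2B-FLAG tChIP-Seq lay above Rosa H2B-FLAG tChIP-Seq but not detectably above single ChIP-Seq of its own line. The latter comparison includes the FLAG step and any untagged chromatin carried over.

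**Figure D4:**
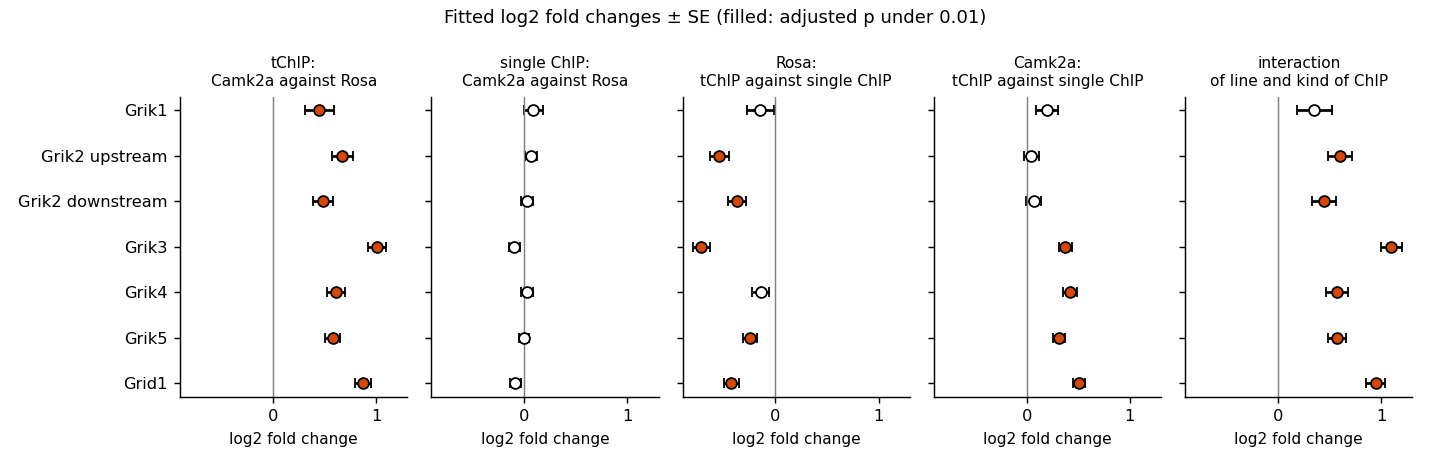
Fitted log2 fold changes ± SE of the 7 regions in the 4 comparisons of groups and in the interaction, with filled points for an adjusted p under 0.01. Line differences are positive and called throughout in tChIP-Seq and near 0 in single ChIP-Seq. Compared with single ChIP-Seq, tChIP-Seq is called lower at 5 regions in Rosa H2B-FLAG and higher at 4 in Camk2a H2B-FLAG.

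Inside the members, 3 further regions overlapped no TSS. The one with most counts lay in an intron of Grik4, at chr9:42705072-42706597, 46.7 kb from the counted TSS. Its CPM was 40.0, 42.9 and 44.2 in Camk2a H2B-FLAG tChIP-Seq and 41.7, 37.0 and 42.0 in Rosa H2B-FLAG tChIP-Seq, so the lines overlapped there. The log2 fold change was 0.08 (adjusted p = 0.663). Against single ChIP-Seq, it was higher after the FLAG step in both lines, by 0.49 on the log2 scale in Rosa H2B-FLAG (adjusted p = 0.000247) and by 0.34 in Camk2a H2B-FLAG (adjusted p = 0.00417). The call in Camk2a H2B-FLAG was lost in 4 of 12 alternatives, namely in DESeq2 (adjusted p = 0.0462), without single ChIP-Seq replicate 2 (0.0291) and without tChIP-Seq replicate 2 (0.0169) or 3 (0.026). The count in this intron was 48.4% to 67.2% of that at the Grik4 promoter in the Rosa H2B-FLAG tChIP-Seq libraries, 37.9% to 42.2% in Camk2a H2B-FLAG tChIP-Seq and 36.1% to 47.2% in single ChIP-Seq. An exact two-sided permutation test of this ratio between the lines in tChIP-Seq gave p = 0.1. That is the smallest p that 3 against 3 libraries allow, so the test cannot show a difference at a lower threshold. The other region in Grik4, at chr9:42328609-42329291 near the 3′ end of the gene, overlapped 2 exons and held 14 to 36 counts per library. Its CPM was 7.83, 13.7 and 9.84 in Rosa H2B-FLAG tChIP-Seq and 6.56, 5.05 and 6.26 in Camk2a H2B-FLAG tChIP-Seq, so that the neuronal libraries were all lower, in contrast to the promoter regions, but the difference did not pass the test (log2 fold change -0.78, SE 0.28, adjusted p = 0.0216). In Rosa H2B-FLAG, tChIP-Seq was 2.5-fold above single ChIP-Seq there (adjusted p = 3.13e-06), and in Camk2a H2B-FLAG the log2 fold change was 0.13 (adjusted p = 0.702). The interaction of line and kind of ChIP was negative (-1.18, SE 0.38, adjusted p = 0.00727), and this call was lost in 8 of 17 alternatives. A region in an intron of Grid1, at chr14:35709405-35709827, held 3 to 25 counts per library and was called only in Camk2a H2B-FLAG, where tChIP-Seq exceeded single ChIP-Seq (log2 fold change 1.26, adjusted p = 0.0013). This call was lost in 2 of 11 alternatives, in DESeq2 (adjusted p = 0.0255) and without tChIP-Seq replicate 2 (adjusted p = 0.0145).

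The AMPA and NMDA receptor genes had 11 regions for 10 of 11 genes, and Grin3b had none. In tChIP-Seq, 8 were higher in Camk2a H2B-FLAG and 3 lower, with a median log2 fold change of 0.85. All 4 AMPA receptor genes rose, which encode the channels of fast excitatory transmission. Gria1 rose by 1.30 (adjusted p = 2.27e-22) and Gria2, whose subunit limits calcium entry, by 0.65 (adjusted p = 5.74e-14). Of the NMDA receptor genes, Grin2a had the largest rise, by 1.58 (adjusted p = 2.42e-32), and Grin2b rose by 0.85 (adjusted p = 5.26e-11). Grin2c and Grin2d, which are known from other cell types than forebrain pyramidal cells, fell by 1.60 and 0.71 on the log2 scale (adjusted p = 1.11e-15 and 0.000321). The third lower region was a weak region at an internal Grin1 TSS, at 4.41 CPM in Camk2a H2B-FLAG, while the region at the upstream Grin1 TSS rose by 1.35. In single ChIP-Seq, 1 of the 11 was called, Grin3a, which was higher by 0.28 (adjusted p = 0.00886).

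Genes for auxiliary and binding proteins of kainate receptors had 10 regions for 8 of 9 genes, and C1ql2 had none. In tChIP-Seq, 5 were higher in Camk2a H2B-FLAG and none lower, with a median of 0.26. Neto1 and Neto2 encode the transmembrane auxiliary subunits that slow the gating of kainate receptors. Neto1 rose by 1.27 (SE 0.08, adjusted p = 6.93e-25), whereas Neto2 stood at 72.5 ± 2.87 CPM in Camk2a H2B-FLAG and 71.8 ± 1.21 in Rosa H2B-FLAG (log2 fold change 0.02, adjusted p = 0.877). C1ql3, which encodes a secreted C1q-like synaptic protein, rose by 1.06 (adjusted p = 1.03e-21). The stronger of the 2 regions of Adarb1, an adenosine deaminase that edits kainate receptor transcripts, rose by 0.38 (adjusted p = 8.09e-06), while the other, at 5.28 CPM in Camk2a H2B-FLAG, stood at -0.48, the lowest value of the list (adjusted p = 0.232). Both regions of Grip1, a scaffold protein of the PDZ type, rose by 0.26 and 0.78. Pick1, another PDZ protein (0.26, adjusted p = 0.0486), Klhl24 (0.19, adjusted p = 0.127) and Klhl17 (-0.28, adjusted p = 0.019) did not pass the test. The first of the Grip1 regions also overlapped a TSS of Gm16320, as the Grin2b region did one of Gm17614.

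Partners of the delta receptors had 12 regions for 6 of 6 genes, of which 11 were higher in Camk2a H2B-FLAG tChIP-Seq and none lower, with a median of 0.90. The cerebellin genes, whose secreted products bridge Grid1 and neurexins, rose by 0.34 at Cbln1, 1.18 at Cbln2 and 1.30 at Cbln4 (adjusted p = 0.00296, 4.84e-18 and 2.95e-14). The Cbln1 region also overlapped the TSSs of C230036H16Rik and Gm2694, so its counts cannot be assigned to a single gene. The 9 neurexin regions ran from 0.38 to 1.79, and the smallest difference, at an internal Nrxn2 TSS with 9.11 CPM in Camk2a H2B-FLAG, was the only one without a call. In single ChIP-Seq, none of the 10 auxiliary protein regions and none of the 12 partner regions was called.

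**Figure D5:**
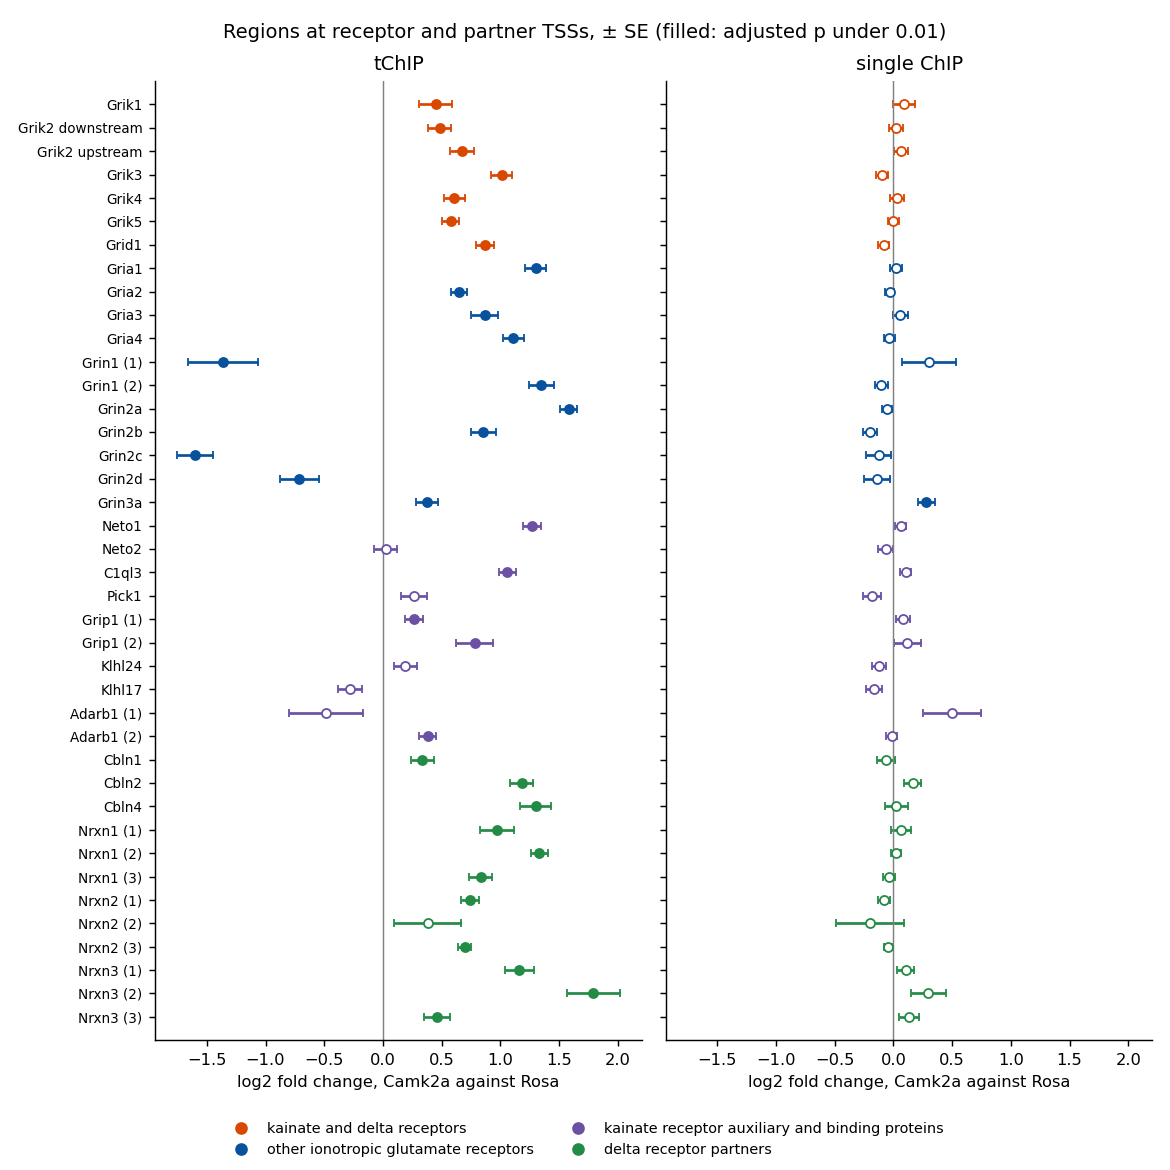
Log2 fold change ± SE between the lines (positive where the Camk2a H2B-FLAG libraries are higher) at the regions of the receptor and partner genes in tChIP-Seq (left) and single ChIP-Seq (right), with filled points for an adjusted p under 0.01 and numbers in brackets for several regions of a gene in order of position. The kainate and delta receptor regions span 0.45 to 1.01 on the left, within the wider range of -1.60 to 1.58 of the AMPA and NMDA receptors, and lie close to 0 on the right.

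Marker genes of the cell types in cortex moved in the same comparison. In tChIP-Seq, all 5 excitatory neuron regions were higher in Camk2a H2B-FLAG (median 1.33), and their summed level was 948 to 1010 CPM against 341 to 383 in Rosa H2B-FLAG. Of this sum, the region at Camk2a held 339 ± 13.8 CPM against 70.0 ± 3.92 (mean ± SD). Of the 7 inhibitory neuron regions 6 were lower and none higher (97.1 to 103 against 186 to 202 CPM summed). All 5 astrocyte regions were lower (157 to 171 against 344 to 400), as were all 5 endothelial regions (66.8 to 77.4 against 239 to 243) and 6 of 8 oligodendrocyte lineage regions, of which 1, at a TSS of Mbp, was higher (235 to 246 against 372 to 409). None of the 6 microglia markers had a region. Tbr1, Slc32a1, Gfap, Sox10 and Cldn5 also had none. In Rosa H2B-FLAG, where the FLAG step lowered receptor regions, all 5 excitatory regions were lower too (341 to 383 against 695 to 712 CPM summed). All 5 astrocyte regions were higher there (344 to 400 against 269 to 278), as were 3 of 5 endothelial regions (239 to 243 against 174 to 196) and 2 of 7 inhibitory neuron regions (186 to 202 against 157 to 174), with none lower in these lists. The oligodendrocyte lineage went mostly the other way, with 4 of 8 regions lower and 1 higher (372 to 409 against 462 to 484). The summed level of the 7 receptor regions was 757 to 769 CPM in Camk2a H2B-FLAG tChIP-Seq, 461 to 489 in Rosa H2B-FLAG tChIP-Seq and 612 to 627 in the single ChIP-Seq libraries of both lines. The part of cell type composition in the receptor values was not tested. In single ChIP-Seq, 1 of the 5 excitatory regions was higher in Camk2a H2B-FLAG, at Camk2a itself, whose promoter drives Cre in this line (log2 fold change 0.52, adjusted p = 3.74e-27), and 3 of the 8 oligodendrocyte regions were lower.

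Among 12258 regions at protein-coding TSSs with a mean of at least 10 CPM, those with the profile most like each member over the 12 libraries were found by Pearson's r of log2 CPM. The 12 points share 4 groups and differ in depth, so r describes these libraries and carries no test. Grik3 was most like Spock1, Celf5 and Fam155a (r = 0.99 each), and Grid1 most like Caln1 and Pcdh15 (0.99 each) and Nrxn2 (0.99), which encodes a neurexin. Grik5 was most like Fcho1, Nov and Galnt14 (0.97 to 0.98), and Grik4 most like Col19a1, Serinc2 and Bmp3 (0.96 to 0.97). Grik2, by its downstream region, was most like Slc7a8, Adam22 and Rufy3 (0.96 to 0.97), and Grik1 most like Kctd8, 3632451O06Rik and Ccdc19 (0.91 to 0.94). Between the 7 regions themselves, r ran from 0.55 for Grik1 and the upstream Grik2 region to 0.92 for Grik5 and Grid1.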

How the data were processed

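Counts of 12 H3K4me3 libraries, 6 of each kind of ChIP, were used, and the 12 input and FLAG libraries of the series were not analysed here. The authors sequenced single-end reads, removed repeat reads with Bowtie2 2.1.0, mapped the rest to mm9 with Bowtie 1.0.0, removed duplicates (samtools), called peaks (MACS) and counted reads per region (bedtools 2.17.0), versions being those in the submitters' processing notes. The deposited values are whole-number counts per region without normalization, on the same 17993 regions in every library. How the regions were merged is not given in the sources used here. Removal of duplicates and of repeat reads lowers counts at deep or repetitive sites, and strand is not used.

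TSSs were the 5′ ends of transcripts in GENCODE release M1 (mm9). Regions overlapping a TSS of the 6 genes were named whatever their values, regions inside the genes were given as context, and the other gene lists were summarised by counts and medians. Of the genes first listed, 3 are not reported here and are in none of the counts. The members and lists were chosen with earlier results of these data known. Groups followed the sample titles. Comparisons of 2 groups were fitted on their 6 libraries alone, and the interaction on all 12, in edgeR 4.0.16 (R 4.3.3) with TMM, glmQLFit and glmQLFTest in their default form, no filter and no covariate. A threshold of 0.01 was used, and SEs are the size of the log2 fold change over the square root of F. Log2 CPM used a pseudocount of 0.5. The fits were also run on simulated counts with known changes in 200 regions. Far more regions were called in tChIP-Seq, so that run does not check the scaling of these libraries. Alternatives were DESeq2 1.42.0 (size factors, or its Wald test without independent filtering), library totals alone, a minimum of 10 counts in every library, a replicate block, the 12 libraries fitted together, leaving out each library, thresholds of 0.05 and 0.001, and regions within 1000 bp of a TSS. Sequence windows came from RefSeq (GRCm38.p6) and were placed on mm9 by exact match.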

Additional observations from a re-analysis of the deposited data

Results flagged for a closer look

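The difference between the lines in tChIP-Seq exceeded that in single ChIP-Seq at 6 of the 7 receptor regions, by the test of the interaction over 12 libraries in edgeR. The interaction on the log2 scale was 1.10 at Grik3 (adjusted p = 9.11e-21), 0.95 at Grid1 (adjusted p = 1.59e-19), 0.60 at the upstream Grik2 region (adjusted p = 6.89e-06), 0.57 at Grik4 (adjusted p = 1.8e-06), 0.57 at Grik5 (adjusted p = 1.65e-09) and 0.45 at the downstream Grik2 region (adjusted p = 0.000634). Against single ChIP-Seq, the tChIP-Seq level at the promoters was called lower in Rosa H2B-FLAG at 5 regions and higher in Camk2a H2B-FLAG at 4. Both were called at Grik3, Grik5 and Grid1. At both Grik2 regions only the lower Rosa H2B-FLAG level was called, and at Grik4 only the higher Camk2a H2B-FLAG level. At the weak region near the 3′ end of Grik4 the interaction was negative, at -1.18 (adjusted p = 0.00727), and the call was lost in 8 of 17 alternatives, with adjusted p-values over all alternatives of 0.00162 to 0.075, the highest without Rosa H2B-FLAG tChIP-Seq replicate 2.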

How the results depend on the processing

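Under every alternative, including each library left out, the count of receptor regions called was within 1.5 times the count reported: 6 to 7 for the lines in tChIP-Seq, 0 in single ChIP-Seq, 4 to 5 in Rosa H2B-FLAG, 4 in Camk2a H2B-FLAG and 6 for the interaction. Of 455 refits of the 35 log2 fold changes at the promoters, 436 kept direction and side of the threshold. In 7, a call was lost, 5 times at Grik1 in tChIP-Seq and 2 times at Grik5 in Rosa H2B-FLAG, with the values given above, and the cause was not tested. The other 12 changed sign, all where the value was near 0 and not called. Between lines in single ChIP-Seq, Grik5 (-0.0011) came to 0.0011 with DESeq2 size factors, 0.0286 with library totals alone, 0.0021 in DESeq2, 0.0024 with at least 10 counts, 0.0025 with the replicate block, 0.0012 with all 12 libraries, 0.0203 without Rosa H2B-FLAG replicate 2 and 0.0405 without Camk2a H2B-FLAG replicate 3 (lowest without a library, -0.0332), and the downstream Grik2 region (0.02) came to -0.0016, -0.0004 and -0.0354 without Rosa H2B-FLAG replicates 2 and 3 and Camk2a H2B-FLAG replicate 3 (highest without a library, 0.0774). In Camk2a H2B-FLAG, that of the upstream Grik2 region became -0.0090 without single ChIP-Seq replicate 3 (highest without a library, 0.0992). Deviations of same-numbered libraries from their group means correlated at -0.0189 to 0.0384. Whether libraries of a line that carry the same number came from one lysate is not given in the sources used here, so they were not treated as pairs, and with the replicate block 7, 0, 5, 4 and 6 regions were called. Over all regions, the Wald test of DESeq2 called 27 higher and 7 lower in single ChIP-Seq against 167 and 219 (69 to 131 and 49 to 165 with a library left out, fewest without Camk2a H2B-FLAG replicate 2), and 3149 and 2414 in Camk2a H2B-FLAG against 4559 and 4058. No alternative scaling moved the median of all regions by more than 0.10.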
